A study of Coelastrella tenuitheca with 9 samples.

Results

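Catalase A05091 and glutathione reductase A06116 are 2 of the 12605 genes counted in strain S93-3 of Coelastrella tenuitheca, a green microalga. They were chosen by their gene IDs, with their changes after cadmium already known. Their values over the groups are therefore given as a description, with no test. Poly(A) messenger RNA was sequenced from whole wild-type cells in 3 libraries per group. All cells were first grown for 5 days in modified BG-11 medium with 20 g/L glucose under continuous light. They were then kept for 7 days in fresh medium with no CdCl2 (Control), with 20 mg/L CdCl2 (Cd20) or with 50 mg/L CdCl2 (Cd50). All libraries come from this 1 strain. Whether the replicates of a group were grown as separate cultures is not in the labels, so spread and p-values refer to these samples only and may be technical. The label of each gene is the product text of the deposited table, which names a protein of another organism, a fungus for most of the genes described here, and stands for a sequence similarity.

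Catalase is a heme enzyme that splits hydrogen peroxide into water and oxygen without using a reductant, and in plants and algae it is known mainly from peroxisomes. Glutathione reductase is a flavin enzyme that uses NADPH to turn oxidized glutathione back into its reduced thiol form. Reduced glutathione serves in peroxide removal through peroxidases and the ascorbate cycle, binds cadmium through its thiol group, and is the building block of phytochelatins. Plants and green algae have several isoforms of each enzyme, which differ in the compartment they work in.

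The libraries held 10457007 to 15456743 counts assigned to genes, all from 1 batch per the labels. Levels of a gene are in CPM, read counts scaled to a common library size with the trimmed mean of M-values (TMM) scaling of edgeR, which adjusts each library for its composition. TMM factors were 0.89 to 0.90 in Cd20, 0.94 to 0.99 in Control and 1.06 to 1.2 in Cd50. Without them, the median log2 fold change of all genes in Cd50 against Cd20 moved from 0.03 to 0.39, so the choice of scaling bears on every comparison with Cd50. On the first principal component, with 60.6% of the variance, Cd20 lay at -58.1 to -45.0, Control at -12.2 to 29.0 and Cd50 at 17.7 to 52.7. Control 1 and Cd50 1 were the libraries of their groups nearest to Cd20. In such bulk libraries, fewer cells that express a gene and less of its RNA per cell cannot be told apart.

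The catalase transcript A05091 was lowest at 20 mg/L CdCl2 and lay between the other groups at 50 mg/L. It was at 19.9, 18.3 and 18.4 CPM in Control 1 to 3, at 5.21, 4.62 and 3.02 in Cd20 1 to 3, and at 12.6, 11.7 and 8.71 in Cd50 1 to 3. No library of one group overlapped with another group, though how many of all genes are separated in this way was not counted. The means were 18.9 ± 0.88 CPM in Control, 4.28 ± 1.13 in Cd20 and 11.0 ± 2.03 in Cd50 (SD, n = 3). The level at 20 mg/L was thus 4.38-fold lower than in Control (log2 fold change -2.13, SE 0.20). At 50 mg/L it was 1.72-fold lower than in Control (-0.78, SE 0.18) and 2.55-fold higher than at 20 mg/L (1.35, SE 0.21). With library size alone as the scaling, the log2 fold change at 50 mg/L against Control was -0.55. The order of the groups, Control above Cd50 above Cd20, held between all pairs of neighbours beyond their spread.

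The depth behind the catalase values was modest. The counts were 289, 221 and 221 in Control 1 to 3, 140, 160 and 111 in Cd50 1 to 3, and only 54, 53 and 29 in Cd20 1 to 3. The exact Poisson 95% interval of the lowest count, 29 in Cd20 3, ran from 19.4 to 41.6, and that of the lowest Cd50 count, 111 in Cd50 3, from 91.3 to 134, counting error only. Among the 11140 genes tested, 1.10% had a lower log2 fold change than A05091 in Cd20 against Control and 10.0% in Cd50 against Control. In the authors' deposited table the log2 fold changes of A05091 were -2.11 for Cd20 against Control, -0.79 for Cd50 against Control and 1.32 for Cd50 against Cd20.

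The glutathione reductase transcript A06116 was also lowest at 20 mg/L, but at 50 mg/L it lay in the range of the untreated libraries. It was at 72.4, 102 and 89.3 CPM in Control 1 to 3, at 38.5, 33.5 and 30.4 in Cd20 1 to 3, and at 73.0, 92.2 and 88.3 in Cd50 1 to 3. Every Cd20 library was below every other library, whereas all 3 Cd50 libraries fell inside the Control range in CPM. The group means were 87.9 ± 14.9 CPM in Control, 34.1 ± 4.07 in Cd20 and 84.5 ± 10.2 in Cd50 (SD, n = 3). This put Cd20 2.57-fold below Control (log2 fold change -1.36, SE 0.15) and Cd50 2.48-fold above Cd20 (1.31, SE 0.15). Cd50 and Control differed by less than their spread (-0.06, SE 0.14), and with library size alone as the scaling the value was 0.18, of the other sign. Cd20 was the lowest of the 3 groups with either scaling, while Control and Cd50 have no order beyond their spread.

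Glutathione reductase A06116 rested on 292 to 399 counts per library in Cd20 and on 812 to 1260 in the other groups. Its lowest libraries within their groups were Control 1 and Cd50 1, the same libraries that lay nearest to Cd20 on the first component. Without both of them the log2 fold changes were -1.47 for Cd20 against Control, -0.06 for Cd50 against Control and 1.41 for Cd50 against Cd20. In CPM, catalase A05091 had its highest Control and Cd50 values in those 2 libraries. In FPKM its Cd50 1 value (8.00) was below that of Cd50 2 (8.28). The Poisson 95% intervals of these counts, 118 to 165 and 136 to 187, overlapped. Without Control 1 and Cd50 1 its log2 fold changes were -2.08, -0.82 and 1.26. Of the genes tested, 5.04% had a lower log2 fold change than A06116 in Cd20 against Control. The authors' deposited table gives log2 fold changes of -1.34 for A06116 in Cd20 against Control and 1.28 in Cd50 against Cd20, and does not list it for Cd50 against Control.

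**Figure D1:**
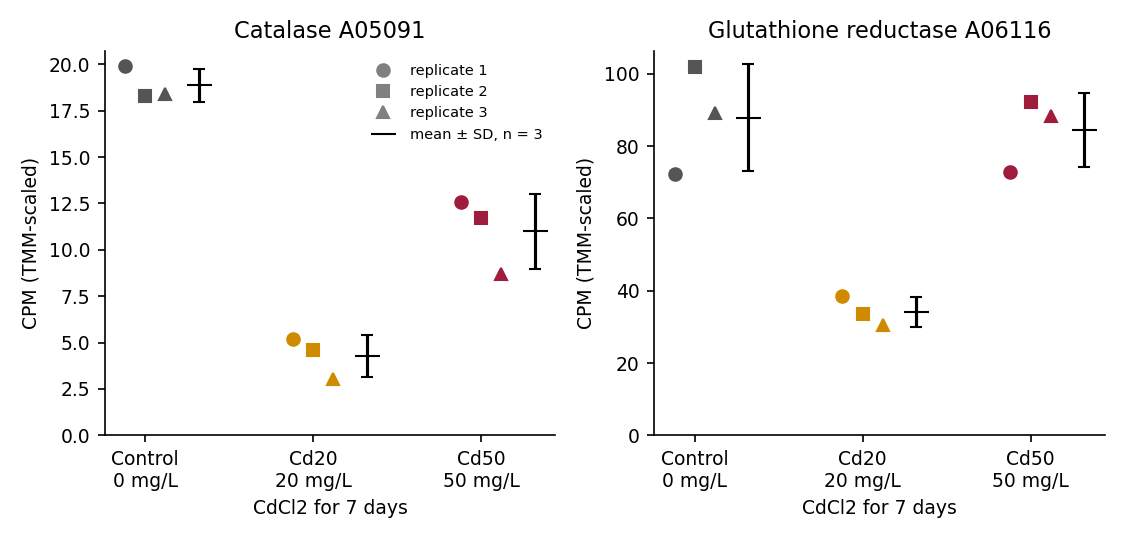
CPM with TMM scaling (vertical axis, from 0) of catalase A05091 (left) and glutathione reductase A06116 (right) in each library by CdCl2 concentration; symbols mark replicates, and the bars at the side the mean ± SD of 3 libraries. Catalase stands at 3 separate levels, 18.9, 4.28 and 11.0 on average, while glutathione reductase is low at 20 mg/L alone, with the Cd50 libraries inside the Control range.

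Set side by side, both transcripts were lowest at 20 mg/L and differed in how they stood at 50 mg/L. Per length, as deposited FPKM, glutathione reductase A06116 was 3.94, 6.02 and 5.25 times as abundant as catalase A05091 in Control 1 to 3, 7.99, 7.84 and 10.9 times in Cd20 1 to 3, and 6.27, 8.52 and 11.0 times in Cd50 1 to 3. The ratio was thus higher in every cadmium library than in every Control library. In rank among all 12605 genes by mean FPKM, A06116 went from position 2434 from the top in Control to 4547 in Cd20 and 2228 in Cd50, and A05091 from 6163 to 9136 and 7802. The likeness of their profiles was measured as the root mean square difference of log2 CPM, centred on each gene, over the 9 libraries. It was 0.45 between both genes. Of the 8888 tested genes with a mean of 5 CPM or more, glutathione reductase was at position 141 by nearness to catalase, and catalase at position 1834 by nearness to glutathione reductase.

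A05091 was the less abundant of the 2 genes described as catalase. A second gene with the same product text, A03240, stood at 329, 291 and 298 FPKM in Control 1 to 3, at 270, 281 and 278 in Cd20 1 to 3, and at 238, 220 and 218 in Cd50 1 to 3. A05091 was at 11.2, 10.9 and 10.9 FPKM, at 2.77, 2.49 and 1.60, and at 8.00, 8.28 and 6.22 in the same libraries. A03240 therefore made up nearly all of the summed FPKM of these 2 genes in each library. A05091 held 3.47 ± 0.16% of that sum in Control, 0.82 ± 0.23% in Cd20 and 3.22 ± 0.42% in Cd50 (SD, n = 3). Only 19.5% of all genes have a product text, so unlabelled catalase genes would be missed here. The same limit holds for the glutathione reductase genes and for the gene lists below.

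The pair of catalase genes followed different courses over the concentrations. A03240 did not pass in Cd20 against Control, where A05091 was lowest (466 ± 44.9 CPM in Control and 457 ± 8.43 in Cd20, log2 fold change -0.03, SE 0.11, edgeR adjusted p = 0.841). It fell at 50 mg/L, to 292 ± 34.2 CPM, both against Control (-0.67, SE 0.11, edgeR adjusted p = 0.000458) and against Cd20 (-0.65, SE 0.11, edgeR adjusted p = 0.00029), and both calls held in all alternatives run. From 20 to 50 mg/L the values of the 2 genes thus had opposite signs, 1.35 for A05091 and -0.65 for A03240. Their summed FPKM was 317 ± 20.0 in Control, 279 ± 5.80 in Cd20 and 233 ± 11.9 in Cd50. FPKM carries no TMM scaling, and A03240 alone was at 306 ± 19.8 FPKM in Control and 276 ± 6.08 in Cd20. The lower sum in Cd20 is thus mostly that of A03240, whose TMM-scaled CPM did not pass there. The sum was lowest at 50 mg/L, where A05091 was not at its lowest.

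A06116 was 1 of 3 genes described as a glutathione reductase. It had the widest range of them over the groups, but was chosen with its changes already known. A06763, described as a glutathione-disulfide reductase and added here because its product text names the same enzyme, was the most abundant per length, at 67.3 ± 3.30 FPKM in Control, 46.4 ± 4.0 in Cd20 and 72.0 ± 6.77 in Cd50. A06116 was at 55.5 ± 10.8, 19.7 ± 2.35 and 63.0 ± 11.2 FPKM, and A08104, whose coding length of 2952 bases is above the 1548 of A06116, at 21.3 ± 0.83, 21.9 ± 0.83 and 26.8 ± 1.15. In Control and Cd50 A06116 was above A08104 in every library, while in Cd20 both lay between 17.5 and 22.6 FPKM. The share of A06116 in the FPKM of the 3 genes was 38.2 ± 3.87% in Control, 22.4 ± 1.23% in Cd20 and 38.7 ± 2.5% in Cd50.

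A06763 fell at 20 mg/L with a smaller fold change than that of A06116, and A08104 did not pass in any comparison. The log2 fold change of A06763 in Cd20 against Control was -0.41 (SE 0.09, edgeR adjusted p = 0.00352), and in Cd50 against Control -0.14 (SE 0.09, adjusted p = 0.244). Its rise from 20 to 50 mg/L (0.27, SE 0.09, edgeR adjusted p = 0.0206) was lost at an adjusted p of 0.0874 without Cd20 3 and of 0.0642 without Cd50 2. For A08104 the log2 fold changes were 0.16 in Cd20 against Control (edgeR adjusted p = 0.158), 0.10 in Cd50 against Control (adjusted p = 0.42) and -0.06 in Cd50 against Cd20 (adjusted p = 0.539). With library size alone the last 2 became 0.33 and 0.29 and passed (edgeR adjusted p = 0.00971 and 0.0109). Summed over the 3 genes, the FPKM was 144 ± 14.1 in Control, 88.0 ± 5.79 in Cd20 and 162 ± 19.1 in Cd50. This sum, also without TMM scaling, was lowest at 20 mg/L.

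**Figure D2:**
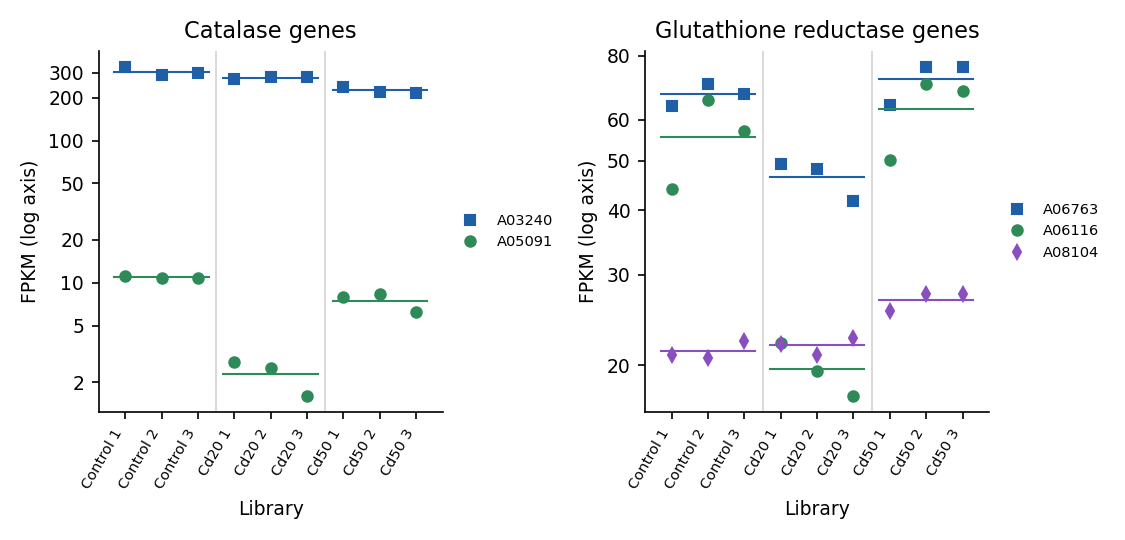
Deposited FPKM (vertical log axis) of the 2 catalase genes (left) and the 3 glutathione reductase genes (right) in each of the 9 libraries, with a line at each group's mean. Catalase A05091 is at 1.60 to 2.77 in Cd20 against 10.9 to 11.2 in Control, far below A03240 throughout, and glutathione reductase A06116 drops in Cd20 to the level of A08104.

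Both genes lie in loci whose coding part is a minor share of the span. A05091 is annotated on chromosome 2 from 1072433 to 1078952, a span of 6520 bases with a coding length of 1674 bases, or 558 codons. A06116 is on chromosome 3 from 1321169 to 1327899, a span of 6731 bases with 1548 coding bases, or 516 codons. Positions are those of the deposited table, whose genome build the sources used here do not give, and no other annotated gene overlaps either span. The second catalase gene A03240 is on another chromosome, 16 (846315 to 850380), while A06763 is on chromosome 3 as A06116 is, from 5345618 to 5349426, and A08104 on chromosome 5 from 2495531 to 2503798.

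On 1 side of each gene lies a close neighbour with a similar course. A05090, which has no product text and ends 749 bases before catalase A05091, was at 12.9, 22.8 and 17.0 CPM in Control 1 to 3, at 2.89, 3.66 and 2.5 in Cd20 1 to 3, and at 10.9, 10.5 and 8.95 in Cd50 1 to 3. As with A05091, its 3 groups did not overlap, a separation that was not counted over all genes. Of all tested genes, 51% were called in Cd20 against Control, 39.6% in Cd50 against Control and 70% in Cd50 against Cd20. A05090 fell in Cd20 against Control (log2 fold change -2.52, edgeR adjusted p = 9.08e-06) and rose from Cd20 to Cd50 (1.73, adjusted p = 0.00013). Its fall in Cd50 against Control (-0.79, edgeR adjusted p = 0.00978) was lost at an adjusted p of 0.051 without Cd50 3. The gene on the other side of catalase, A05093, starts 4112 bases away and had its lowest mean at 50 mg/L. It was at 14.9 ± 1.66 CPM in Control, 10.9 ± 0.68 in Cd20 and 7.00 ± 0.60 in Cd50. Its log2 fold changes were -0.45 in Cd20 against Control, -1.09 in Cd50 against Control and -0.64 in Cd50 against Cd20.

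A06117, also without product text, starts 226 bases after glutathione reductase A06116. It was at 42.9, 81.7 and 65.0 CPM in Control 1 to 3, at 32.3, 30.9 and 30.1 in Cd20 1 to 3, and at 62.7, 82.2 and 78.4 in Cd50 1 to 3. Like A06116 it was lowest in every Cd20 library, with its lowest Control and Cd50 values in Control 1 and Cd50 1. It fell in Cd20 against Control (-1.02, edgeR adjusted p = 0.00135), rose from Cd20 to Cd50 (1.26, adjusted p = 0.000222) and did not pass in Cd50 against Control (0.24, adjusted p = 0.332). In that comparison it passed with a replicate block over the 6 libraries compared (0.28, edgeR adjusted p = 0.0293) and without Control 2 (0.47, adjusted p = 0.0484). Novel00958, which ends 941 bases before A06116, was at 28.8 ± 5.86 CPM in Control, 24.3 ± 1.61 in Cd20 and 32.6 ± 3.97 in Cd50. Of the 8888 genes ranked by likeness of profile, A05090 was at position 31 from catalase (root mean square difference 0.31). A06117 was at position 231 from glutathione reductase (0.21). On the other sides, A05093 was at position 3594 from catalase (0.91) and Novel00958 at position 2200 from glutathione reductase (0.49). The deposited tables give no strand for these genes.

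The genes most like catalase A05091 over the 9 libraries were mostly undescribed, as most genes are. Of all genes, 19.5% have a product text. In 11.5% it is informative, meaning not hypothetical, unknown, uncharacterized or predicted protein. The nearest of all were Novel00446, A02186, A00284 and A05597, at root mean square differences of 0.17, 0.17, 0.19 and 0.19 on the log2 scale. The nearest with an informative product text by this rule were A01112 (only "unnamed protein product", 0.24), the chlorophyll a-b binding antenna gene A00964 (0.26), the glucose-6-phosphate dehydrogenase A04681 (0.26) and the glutamate decarboxylase A02360 (0.28). Catalase itself varied by a root mean square of 0.91 about its own mean. A04681, whose enzyme makes NADPH at the entry of the pentose phosphate pathway, was at 98.9 ± 13.0 CPM in Control, 21.3 ± 0.89 in Cd20 and 53.9 ± 4.67 in Cd50. Its highest Control library was Control 2, at 112 CPM. That of catalase was Control 1, at 19.9 CPM beside 18.3 and 18.4 in Control 2 and 3.

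Glutathione reductase A06116 had closer counterparts. Its nearest genes of any kind were A00428, the succinyl-CoA synthetase-like A02893, A01626 and A04663, all at differences of 0.07 to 0.08, against a root mean square of 0.65 of A06116 about its own mean. With an informative product text, A02893 (0.08), the SPFH/Band 7 domain gene A10497 (0.09), the peroxisomal long chain acyl-CoA synthetase A00912 (0.09) and the NAD isocitrate dehydrogenase subunit A01004 (0.10) were nearest. A02893, of a family that works in the citrate cycle, was at 84.3 ± 15.8 CPM in Control, 35.0 ± 3.19 in Cd20 and 79.3 ± 9.52 in Cd50. Like A06116, A02893 and A01004 had their lowest Control and Cd50 values in Control 1 and Cd50 1. These likenesses were read over 9 libraries in 3 groups that share the same scaling and are a description only.

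**Figure D3:**
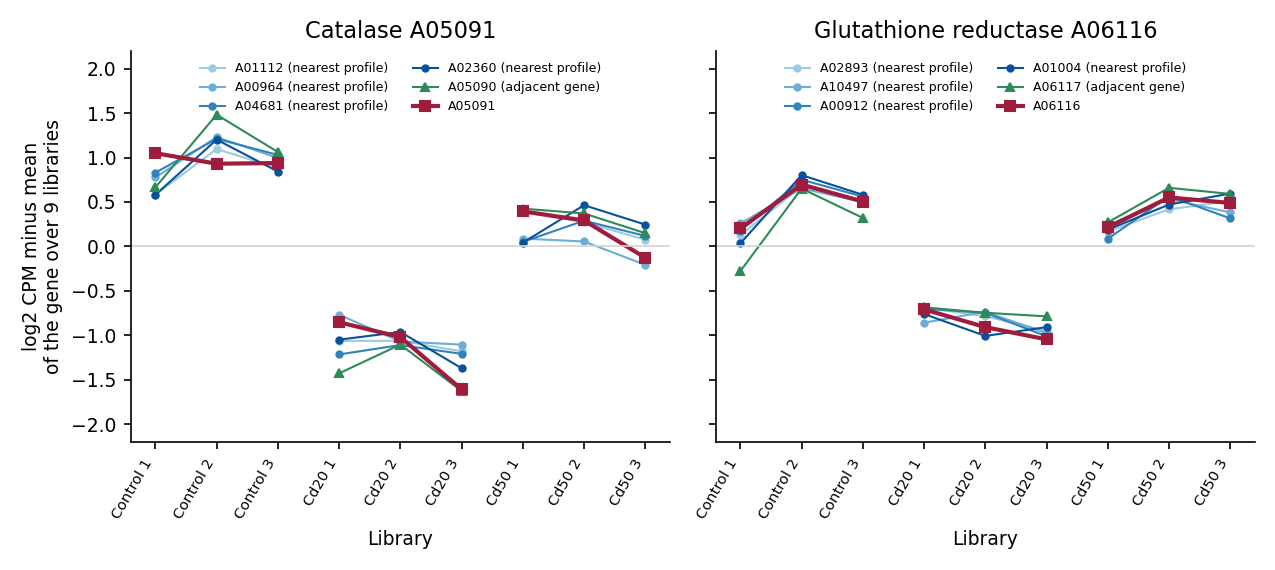
Centred log2 CPM (vertical axis, each gene minus its mean over the 9 libraries) of catalase A05091 (left) and glutathione reductase A06116 (right), in red, with the 4 described genes of nearest profile in blue and the adjacent gene of similar course in green. All lines are lowest in Cd20; those in the left panel stand higher in Control than in Cd50, and those in the right panel overlap between Control and Cd50.

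Other genes of reactive oxygen removal went both ways at 20 mg/L. In Cd20 against Control, 12 of the 28 tested genes of this list fell and 5 rose (edgeR adjusted p under 0.05). Of all tested genes, 51% were called there, 27.2% as lower and 23.8% as higher. The median log2 fold change was -0.19 over the list and -0.03 over all genes. The list was built from words of the product texts and holds 3 genes of other function, 2 ferredoxins and a splicing protein. It also holds the second catalase A03240, which is among the falls counted in both comparisons with Cd50. Its lowest gene, the manganese superoxide dismutase A05722, was at -1.33. A05722, whose enzyme makes the hydrogen peroxide that catalase removes, fell from 105 to 41.6 CPM (edgeR adjusted p = 5.47e-06). Among the rises were the thioredoxin-like fold gene A07320 (2.85) and the 1-Cys peroxiredoxin gene A06230 (1.33), of families that reduce disulfides and peroxides. From Cd20 to Cd50, 17 rose and 6 fell, where 70% of all genes were called, 35.3% as higher and 34.7% as lower. The peroxiredoxin A10951, of a family that reduces peroxides, had the largest rise of the list, from 12.7 to 32.3 CPM (edgeR adjusted p = 3.59e-05).

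At 50 mg/L against Control, 8 genes of that list rose and 4 fell, where 39.6% of all genes were called, 17.8% as higher and 21.8% as lower. Monodehydroascorbate reductase A00318, which regenerates ascorbate, rose from 83.7 to 141 CPM (log2 fold change 0.76, edgeR adjusted p = 0.000185). The thioredoxin A02873 fell from 145 to 51.2 CPM (-1.51, adjusted p = 0.00021). These counts moved with the scaling, to 16 rises and 2 falls with library size alone. The 4 falls became 2 without Control 2 and also without Cd50 2. Over all genes the split of 1983 rises and 2431 falls became 3851 and 1582 with library size alone, and for Cd50 against Cd20 3928 and 3865 became 5440 and 2262.

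Genes that make or use glutathione went both ways at 20 mg/L. Of the 13 other genes of the glutathione list, 5 rose and 5 fell in Cd20 against Control, where 23.8% of all genes were called higher and 27.2% lower. The median was -0.31 over the list and -0.03 over all genes. This list includes A06763 and A08104. Glutamate-cysteine ligase A01378, which catalyses the first step of glutathione synthesis, rose from 13.4 to 29.3 CPM in Cd20 and to 34.8 in Cd50 (log2 fold changes 1.13 and 1.38, edgeR adjusted p = 5.39e-05 and 1.42e-05), while A06116 was lowest in Cd20. The glutathione S-transferase A10304 rose by 3.94 on the log2 scale at 20 mg/L (edgeR adjusted p = 3.78e-07). This rise started from a low level, 0.65 ± 0.10 CPM in Control, and reached 10.1 ± 0.24 in Cd20. The formaldehyde-oxidizing S-(hydroxymethyl)glutathione dehydrogenase A03073 fell by 0.92 on the log2 scale at 20 mg/L (edgeR adjusted p = 3.51e-05). Phytochelatin synthase A02769, which joins glutathione into phytochelatins and is named here after its values were seen, rose from 61.2 to 91.5 CPM at 20 mg/L (log2 fold change 0.58, edgeR adjusted p = 0.000926). At 50 mg/L it stood at 76.3 CPM (0.32 against Control, adjusted p = 0.0309), a rise lost without Control 3, Cd50 2 or Cd50 3 (adjusted p = 0.135, 0.0742 and 0.0521). In Cd50 against Control, with 17.8% of all genes called higher and 21.8% lower, 5 rose and 1 fell, the glyoxalase I A06948 (-0.31, adjusted p = 0.0313), and that fall was lost with library size alone and without Control 2, Control 3, Cd20 2, Cd50 2 or Cd50 3. With a replicate block over 6 libraries, 6 rose and 2 fell there, with the gamma-glutamyltranspeptidase A05724 (0.49, edgeR adjusted p = 0.0106) and A03073 (-0.22, adjusted p = 0.0283) added. From Cd20 to Cd50, where 35.3% of all genes were called higher and 34.7% lower, 7 rose and 2 fell, or 11 and 1 with library size alone. The 2 falls, A10304 and A02769, also became 1 without Cd20 1, Cd20 2, Cd50 2 or Cd50 3.

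Genes for enzymes that supply NADPH, the reductant of glutathione reductase, were lower at 20 mg/L in 7 of 9 cases and higher in 1, the 6-phosphogluconate dehydrogenase A10622 (1.40 ± 0.96 CPM in Control and 4.95 ± 0.63 in Cd20). Of all tested genes, 27.2% were called lower and 23.8% higher. The median was -0.63 over the 9 and -0.03 over all genes. The 7 included A04681 (-2.21, edgeR adjusted p = 1.45e-07) and the 6-phosphogluconate dehydrogenase A05886, which fell from 717 to 404 CPM (-0.83, adjusted p = 0.000117). They also included A00711 (-1.28) and A01004 (-1.40), isocitrate dehydrogenases that the words of the list matched but that reduce NAD. Without this pair 5 of 7 fell. Of these 5, the malic enzyme A04822 and the glucose-6-phosphate dehydrogenase A05256 both lost the call without Control 2, Cd20 2 or Cd20 3, which leaves 3. In Cd50 against Control, where 21.8% of all genes were called lower and 17.8% higher, 2 fell, namely A04681 (-0.88, adjusted p = 0.00014) and the 6-phosphogluconolactonase A04896 (-0.25, adjusted p = 0.0351), and the second was lost without any of Control 1, Control 2, Control 3, Cd20 2, Cd50 2 or Cd50 3. By edgeR none rose there (0 also at an unadjusted p under 0.05, and 0 by DESeq2), while 3 rose with library size alone, and 1 without Control 2 or without Cd50 1. With a replicate block over 6 libraries, A05256 rose (0.27, edgeR adjusted p = 0.0128) and the falls became 3 with A05886 (-0.21, adjusted p = 0.0243). From Cd20 to Cd50, where 35.3% of all genes were called higher and 34.7% lower, 7 of 9 rose and 2 fell, A04896 (-0.31, adjusted p = 0.00651) and A10622 (-2.69, adjusted p = 0.00122). A04681 rose there from 21.3 to 53.9 CPM (adjusted p = 2.05e-05).

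Genes of the peroxisome list, built from product words for the usual compartment of catalase, went both ways at 20 mg/L. In Cd20 against Control 4 of 12 rose and 4 fell, where 23.8% of all genes were called higher and 27.2% lower. Among the rises was A10172 (0.75, edgeR adjusted p = 0.000897), a gene of leucine synthesis that the words of the list matched. The median was -0.06 over the list and -0.03 over all genes, and the rises became 2 without Control 2, Control 3, Cd20 1 or Cd20 2 and with library size alone. The acyl-CoA synthetases A07095 and A00912, which activate fatty acids for breakdown, fell by 1.00 and 1.33 on the log2 scale (edgeR adjusted p = 8.75e-06 and 7.94e-05). The log2 fold change of acyl-CoA oxidase A02547, whose enzyme makes hydrogen peroxide, was -0.14 (edgeR adjusted p = 0.247, or 0.0247 with library size alone), and that of uricase A09835, another such enzyme, -0.01 (adjusted p = 0.951). At 50 mg/L against Control edgeR called no rise (1 at an unadjusted p under 0.05, and 0 by DESeq2) and 4 falls, where 17.8% of all genes were called higher and 21.8% lower. Among the falls were A02547 (-0.39, adjusted p = 0.00715) and malate synthase A02177 of the glyoxylate cycle (-0.44, adjusted p = 0.00228), both lost with library size alone (adjusted p = 0.14 and 0.11). The others were A07095 and A10172, the gene of leucine synthesis. With library size alone 4 rose and 1 fell, and without Cd50 1 a single gene rose. With a replicate block over 6 libraries, the acyl-CoA synthetase A00914 rose (0.65, edgeR adjusted p = 0.0246) and 5 genes fell, A10233 among them (-0.21, adjusted p = 0.0456). From Cd20 to Cd50 5 rose and 5 fell, where 35.3% of all genes were called higher and 34.7% lower. A10172 was among these falls (-1.15, edgeR adjusted p = 6.04e-05). The falls became 2 with library size alone and 3 without Control 3, Cd20 1, Cd20 2 or Cd50 2.

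The flavin enzymes related to glutathione reductase had smaller log2 fold changes than A06116 at 20 mg/L. A06116 was chosen with its changes already known, so its place beside them in any comparison is a description only. Of 4 tested, thioredoxin reductase A06975 (-0.46, edgeR adjusted p = 0.00115) and dihydrolipoamide dehydrogenase A08705 (-0.37, adjusted p = 0.00957) fell, and A00318 (0.05) and A08104 (0.16) did not pass. In that comparison 27.2% of all tested genes were called lower and 23.8% higher. By its words the list leaves out A06763 and the thioredoxin-disulfide reductase A05218. In Cd50 against Control 1 rose by edgeR, A00318, and 0 fell, where 17.8% of all genes were called higher and 21.8% lower. At an unadjusted p under 0.05, and by DESeq2, 0 fell too, while 3 rose with library size alone. From Cd20 to Cd50 A06975 (0.51), A08705 (0.41) and A00318 (0.70) rose, all with a smaller log2 fold change than the 1.31 of A06116. There 35.3% of all genes were called higher and 34.7% lower.

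**Figure D4:**
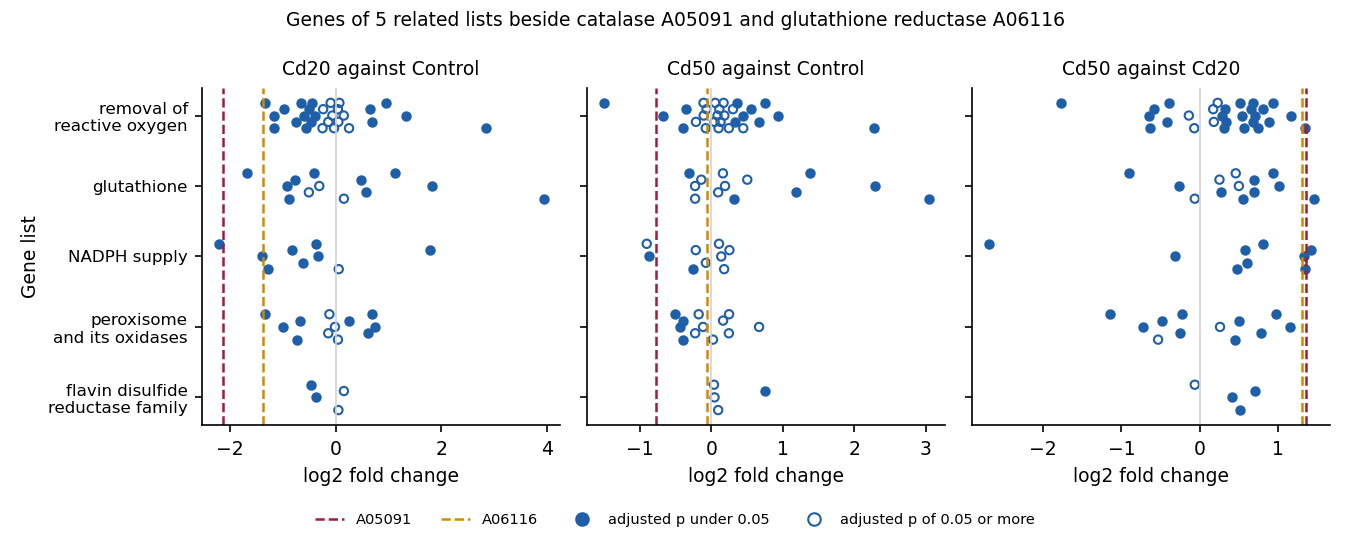
Log2 fold changes (horizontal axis) of the tested genes of 5 related lists in the 3 comparisons, filled where the edgeR adjusted p was under 0.05; dashed lines mark catalase A05091 and glutathione reductase A06116. At 20 mg/L against Control both lines (-2.13 and -1.36) lie left of most points, and from 20 to 50 mg/L (1.35 and 1.31) right of most. Both genes were chosen with these changes already known.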

How the data were processed

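The analysis started from the tables as deposited. STAR 2.7.10a, StringTie 2.2.1 and DESeq2 1.34.0 are named per the submitters' processing notes. Per the labels the library kit marks strand; the counter, its strand setting, build and annotation were "not given in the sources used here", and reads shared between near copies are uncertain. The authors deposited whole-number counts for each gene. Their deposited FPKM match counts per coding length and column total (100% within 1%). The authors' deposited comparison tables give log2 fold changes with p-values, and group means as a signal of counts over size factors.

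One fit covered all 9 libraries (edgeR 4.0.16, R 4.3.3): quasi-likelihood test, TMM, filterByExpr, group alone, Benjamini-Hochberg adjusted p under 0.05, 11140 genes tested and 1465 removed. It was also run on simulated counts in which few genes changed, in Cd20 alone, with no composition difference set between libraries. That run cannot show how the fit behaves where many genes change, as here. SE is the log2 fold change over the root of its F. Total counts were 10457007 to 15456743, and intervals cover counting error only. Alternatives were limma 3.58.1, DESeq2 1.42.0, other scalings, no filter, left-out libraries and a replicate block. Residuals of same-numbered libraries correlated at 0.594, 0.449 and 0.186 for Cd50 against Control, and at -0.218 to 0.132 otherwise. Cd50 against Control was therefore treated as possibly paired. Beyond the replicate number no label pairs the libraries, and the main p-values come from the fit without a block.

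Members, lists and tests were chosen with earlier results of these data known. Named were the list genes of lowest adjusted p per comparison, all of the flavin list, genes sharing the members' product words, the nearest profiles and adjacent genes. A06763, A02769, A06948, A05724, A04822, A05256, A04896, A10622, A00914, A09835 and A10172 were named after their product text or values were seen.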

Additional observations from a re-analysis of the deposited data

How the results depend on the processing

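The log2 fold changes of A05091 and A06116 kept their sign in all alternatives run, except A06116 in Cd50 against Control, which lies near 0. There it was 0.18 with library size alone and in limma on log2 FPKM, at both pseudocounts (0.1 and 1). In Cd50 against Cd20, A05091 was at 1.70 with library size alone and 1.69 in limma on log2(FPKM + 0.1), and A06116 at 1.67 with library size alone, 1.57 with upper quartile factors, and 1.66 and 1.62 in limma at 0.1 and 1. Without each library in turn, A05091 ranged from -2.29 to -1.94 in Cd20 against Control, -0.88 to -0.62 in Cd50 against Control and 1.16 to 1.51 in Cd50 against Cd20, and A06116 from -1.47 to -1.24, -0.16 to 0.07 and 1.23 to 1.40. With a replicate block within the 6 libraries compared, A05091 was at -2.14, -0.78 and 1.41 and A06116 at -1.35, -0.04 and 1.35. In Cd50 against Control, where residuals of same-numbered libraries correlated, 1983 genes rose and 2431 fell without the block. These became 2205 and 2619 with it over 9 libraries, and 2969 and 3089 over 6. Among list genes the rises went from 13 to 15 and 18, and the falls from 11 to 11 and 14.

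Counts of calls in both comparisons with Cd50 depended on the scaling, and FPKM carries that of library size alone. In Cd20 against Control rises went from 2650 to 2054 with library size alone and to 3663 without Control 1 and Cd50 1. For Cd50 against Control, 1983 genes rose and 2431 fell as reported. With library size alone these were 3851 and 1582, with upper quartile factors 3119 and 1839, and in limma 3676 and 1569 at a pseudocount of 0.1 and 3792 and 1579 at 1. Of the 63 tested genes of all lists together, 13 rose and 11 fell as reported, and in the same order of settings 30, 22, 28 and 29 rose and 4, 6, 3 and 3 fell. For Cd50 against Cd20 the falls among all genes went from 3865 to 2262, 2269 and 2271 with library size alone and limma at 0.1 and 1. The falls of list genes there went from 15 to 8, 9, 8 and 8 in the order above. Rises among all genes there were 5440 with library size alone. Without each library in turn, rises in Cd50 against Control ranged from 1294 to 2521 over all genes and from 10 to 16 in the lists, and falls from 1757 to 3082 and from 6 to 12. The sign in Cd50 against Cd20 changed with library size alone and in limma at 0.1 and 1 for A08104 (0.295, 0.293, 0.282), A02557 (0.218, 0.218, 0.218), A03950 (0.289, 0.288, 0.288), A02769 (0.0953, 0.0989, 0.0971), A04896 (0.0460, 0.0453, 0.0451), A02547 (0.0996, 0.102, 0.101) and A09909 (0.129, 0.126, 0.125, and 0.0227 with upper quartile factors). Why the scalings differ was not tested. Depth limits catalase in Cd20 most, at 29 to 54 counts per library.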
